A study of Mus musculus with 6 samples.

Results

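The 10 genes described here encode RNA-binding proteins that set alternative splicing during cortical neurogenesis: Ptbp1, Ptbp2, Nova1, Nova2, Rbfox1, Rbfox2, Rbfox3, Elavl3, Elavl4 and Srrm4. They were chosen by symbol, and all 10 were found among the 21937 gene symbols of the authors' deposited table. Ptbp1 is the factor of progenitors and the other 9 are here called the neuronal factors. The study used the cortex of mouse embryos. One group received, by in utero electroporation, a plasmid with an shRNA against Nat14 (shNat14, 3 libraries) and the other a plasmid with a control shRNA (NTC, 3 libraries). In both groups the plasmid was injected into the lateral ventricle at embryonic day 14.5, brains were taken at embryonic day 18.5, and live GFP-positive cells of the dissected cortex were sorted for RNA sequencing. The labels name no strain, no sex and no number of embryos per library, so the spread behind each p-value is that of the libraries alone and may be technical.

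The table holds 1 fold change, 1 mean level, 1 p-value and 1 adjusted p-value per gene and none for a single library. Depth is therefore unknown and no SD can be given. Its header does not name the direction of the fold change, which was taken as shNat14 over NTC because Nat14, the target of the shRNA, was negative at -3.31 in the authors' deposited table (adjusted p = 1.2e-08). That sign is therefore no check of the library labels. Each library is a bulk of sorted cells, in which fewer cells of a type and less RNA per cell cannot be told apart.

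During cortical neurogenesis the polypyrimidine tract protein Ptbp1 is present in progenitors and in most non-neuronal cells, where it represses neuronal exons. Its paralog Ptbp2 replaces it as cells become neurons, in part because Ptbp1 causes an exon of the Ptbp2 transcript to be skipped, which shifts the reading frame and sends the transcript to nonsense-mediated decay. Nova, Rbfox and neuronal Elavl proteins then bind near alternative exons of neuronal genes and favour or block their inclusion, and Srrm4 promotes the inclusion of very short neuronal exons. A gene-level table records how much RNA each regulator has. It does not record which exons were used.

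The exon through which Ptbp1 acts on Ptbp2 is shown first because it ties together the pair of genes compared most closely below. In the GENCODE M21 annotation of the mouse build GRCm38 it is exon 10 of 14 in the principal annotated transcript of Ptbp2, at chr3:119724612-119724645 on the minus strand, and it is coding. Exon 10 of 14 in that of Ptbp1, at chr10:79862014-79862047 on the plus strand, has the same 34 bases in length. Their paralog Ptbp3 also has an exon of that length at chr4:59485339-59485372 on the minus strand. Each sequence is given 5′ to 3′ on the strand of its gene, and capitals mark bases that differ from those of Ptbp1 at the same position.
Ptbp1: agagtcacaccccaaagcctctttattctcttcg
Ptbp2: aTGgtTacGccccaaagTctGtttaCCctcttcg
Ptbp3: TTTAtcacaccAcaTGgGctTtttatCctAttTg

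The Ptbp2 exon differed from that of Ptbp1 at 8 of 34 positions and the Ptbp3 exon at 12 of 34. The length of these exons is not a multiple of 3. With the exon removed, the Ptbp2 reading frame met a stop after 356 codons in place of 532, at 361 bases before the last exon junction. For Ptbp1 the stop came after 379 codons in place of 555, again 361 bases before the last junction. Of the annotated Ptbp2 transcripts, 3 contain the exon and 3 span its position without it, and for Ptbp1 these numbers are 4 and 2. All of these isoforms fall under a single row per gene in the authors' deposited table, so exon inclusion was not measured.

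By the adjusted p of the authors' deposited table, none of the 10 genes was called at 0.05, against 0.155% of all rows (34 of 21937) and 0.195% of rows above the lowest mean level. None had an unadjusted p under 0.05 either, against 5.04% of all rows. The unadjusted p-values of the 10 genes lay between 0.158 (Ptbp2) and 0.827 (Elavl3) in the authors' deposited table, and the adjusted p was 1 for each. The test that gave these p-values is not known for certain, since the submitters' notes and the column names point to different tools. Of the 10 fold changes, 8 were negative and 2 positive in the authors' deposited table, and their median was -0.25 on the log2 scale. Over the 10969 rows at or above the median mean level of the authors' deposited table, a set in which all 10 genes lie, 46.4% were negative and the median was 0.03.

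**Figure D1:**
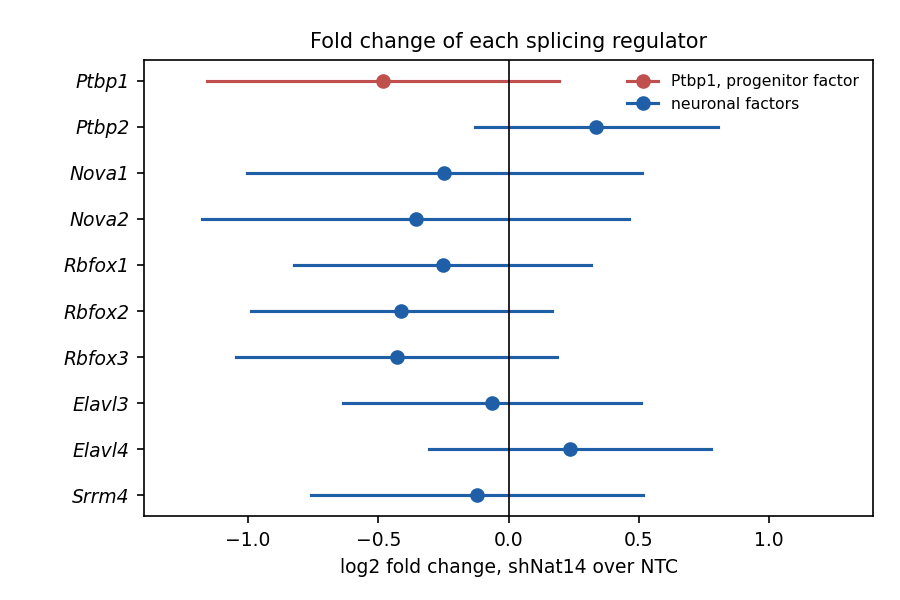
Log2 fold change (shNat14 over NTC, x axis) of each of the 10 genes in the authors' deposited table, with approximate 95% intervals back-calculated from the p-values. Ptbp1 is in red and the 9 neuronal factors are in blue, and every interval crosses 0.

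The table gives no standard errors, so an approximate 95% interval was worked out for each fold change from its p-value on the normal scale. These approximate standard errors ran from 0.24 (Ptbp2) to 0.42 (Nova2) on the log2 scale. The largest unadjusted p among the called rows was 7.65e-05. Given its approximate standard error, Ptbp1 would have needed a fall to about 38.8% of the NTC level to reach that p, and Ptbp2 a rise of about 1.92-fold. Smaller changes could not be called with these libraries, so a missed threshold does not show that the groups were alike.

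Levels in each group were worked out in CPM, read counts scaled to the same library total, from the mean level and the fold change of the table, with equal weight for both groups. Ptbp1 stood at 49.5 CPM in shNat14 cells and 69.1 CPM in NTC cells by this reckoning. Its log2 fold change of -0.48 was the lowest of the 10 genes and was not significant (unadjusted p = 0.161 in the authors' deposited table). The interval ran from -1.16 to 0.19, which is 44.8% to 114% of the NTC level. A moderate loss of Ptbp1 RNA and a slight gain were thus both within the error.

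Ptbp1 also shares sequence and position with other transcripts. Of the 3061 stretches of 50 bases in the principal Ptbp1 transcript, 30.6% occur in transcripts of other genes in GENCODE M21. They lie in the overlapping genes E130317F20Rik, Gm17134 and Plppr3 on the opposite strand (246, 342 and 101 stretches) and in the processed pseudogene Gm4900 (246 stretches). No source used here states that counting used strand, so reads of Ptbp1 and of these genes cannot be told apart with certainty. In the authors' deposited table E130317F20Rik stood at 0.48 on the log2 scale, at a mean log2 CPM of 1.68 (unadjusted p = 0.403). Gm17134, Plppr3 and Gm4900 were not matched to a row of it, so their levels are not known.

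Ptbp2, the neuronal paralog, was one of the 2 genes with a positive fold change. It stood at 495 CPM in shNat14 cells and 392 CPM in NTC cells, which is 0.34 on the log2 scale of the authors' deposited table (unadjusted p = 0.158). The interval ran from -0.13 to 0.80. No stretch of 50 bases of the Ptbp2 transcript occurs in a transcript of another gene, Ptbp1 included, although the coding sequences of the pair are 70.4% identical over 1589 aligned bases. Reads of that length free of mismatches therefore separate the 2 genes.

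Ptbp1 and Ptbp2 had the lowest and the highest fold change of the 10 genes, 0.82 apart on the log2 scale. The ratio of Ptbp2 to Ptbp1 was thus 1.77 times as high in shNat14 cells as in NTC cells. Per kilobase of annotated exon it was 5.17 in shNat14 cells and 2.93 in NTC cells, and per kilobase of the principal transcripts it was 9.24 in shNat14 cells and 5.24 in NTC cells. Whether the ratio differed between the groups was not tested, because that needs both genes in each library. Neither gene passed any threshold by itself. The paralog Ptbp3, listed under its older symbol Rod1, stood at 0.42 on the log2 scale of the authors' deposited table (unadjusted p = 0.144), with 52.7 CPM in shNat14 cells and 39.3 CPM in NTC cells.

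**Figure D2:**
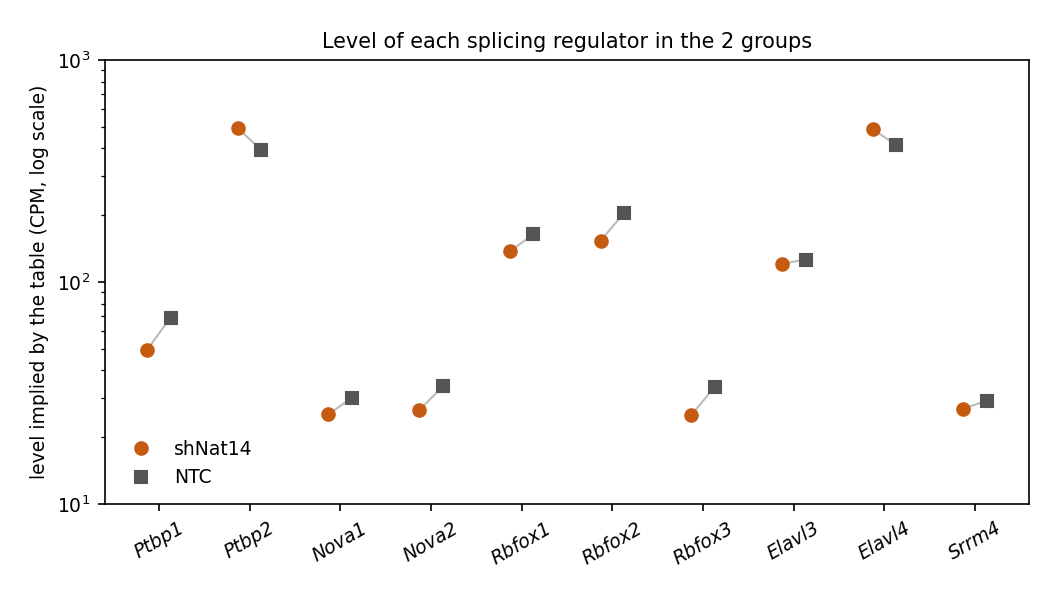
Level in CPM (y axis, log scale) of each of the 10 genes in shNat14 cells (orange circles) and NTC cells (grey squares), worked out from the mean level and fold change of the authors' deposited table. Ptbp1 stood at 49.5 CPM in shNat14 and 69.1 CPM in NTC, and Ptbp2 at 495 CPM in shNat14 and 392 CPM in NTC.

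All 3 Rbfox genes had negative fold changes and none was significant. Rbfox proteins bind GCAUG in introns near alternative exons, and Rbfox3 is the antigen known as NeuN, a marker of postmitotic neurons. Rbfox3 stood at 25.1 CPM in shNat14 cells and 33.8 CPM in NTC cells, a fold change of -0.43 on the log2 scale of the authors' deposited table (unadjusted p = 0.172, interval -1.05 to 0.19). Rbfox2, which is also found outside neurons, stood at 154 CPM in shNat14 cells and 204 CPM in NTC cells (log2 fold change -0.41, unadjusted p = 0.163 in the authors' deposited table, interval -0.99 to 0.17). For Rbfox1 the levels were 138 CPM in shNat14 cells and 164 CPM in NTC cells, which the authors' deposited table gives as -0.25 on the log2 scale (unadjusted p = 0.386). The fold change of Ptbp1 thus lay 0.05 below that of Rbfox3 and 0.07 below that of Rbfox2 on the log2 scale. Both distances are less than the approximate standard error of any of these 3 genes. The standard error of the distance itself is unknown, because it needs both genes in each library.

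The Nova proteins bind YCAY clusters and are known for exons of synaptic genes. Nova2, which prevails in the cortex, stood at 26.4 CPM in shNat14 cells and 33.8 CPM in NTC cells (log2 fold change -0.36, unadjusted p = 0.393 in the authors' deposited table). Nova1 stood at 25.4 CPM in shNat14 cells and 30.1 CPM in NTC cells (log2 fold change -0.25, unadjusted p = 0.524 in the authors' deposited table). These 2 genes had the widest intervals of the 10, from 44.3% to 138% of the NTC level for Nova2 and from 49.9% to 143% for Nova1. Of the stretches of 50 bases in the Nova2 transcript, 30.8% occur in other genes, all of them in Gm26821, a noncoding gene on the opposite strand of the same locus, so the value of Nova2 is uncertain to that extent.

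The Elavl proteins, also called Hu proteins, bind U-rich sequences in introns and in mature messages. Elavl4 was the other gene with a positive fold change. It stood at 488 CPM in shNat14 cells and 414 CPM in NTC cells (log2 fold change 0.24, unadjusted p = 0.390 in the authors' deposited table, interval -0.30 to 0.78). Elavl3 was the closest of the 10 genes to 0, with 121 CPM in shNat14 cells and 126 CPM in NTC cells (log2 fold change -0.06, unadjusted p = 0.827 in the authors' deposited table, interval -0.64 to 0.51). An overlapping protein-coding gene model on the same strand, Gm49318, holds 207 stretches of 50 bases of Elavl3. Beyond these genes, Elavl2, another neuronal paralog, stood at -0.06 and the ubiquitous Elavl1 at 0.14 in the authors' deposited table (unadjusted p = 0.804 and 0.567).

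Srrm4, a serine- and arginine-rich activator of neuronal microexons, stood at 26.9 CPM in shNat14 cells and 29.2 CPM in NTC cells. This is -0.12 on the log2 scale of the authors' deposited table (unadjusted p = 0.710, interval -0.76 to 0.52). An annotated antisense gene, Srrm4os, holds 20 stretches of 50 bases of the Srrm4 transcript. The paralog Srrm3 lay below the median mean level, at -0.54 on the log2 scale of the authors' deposited table (unadjusted p = 0.359).

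**Figure D3:**
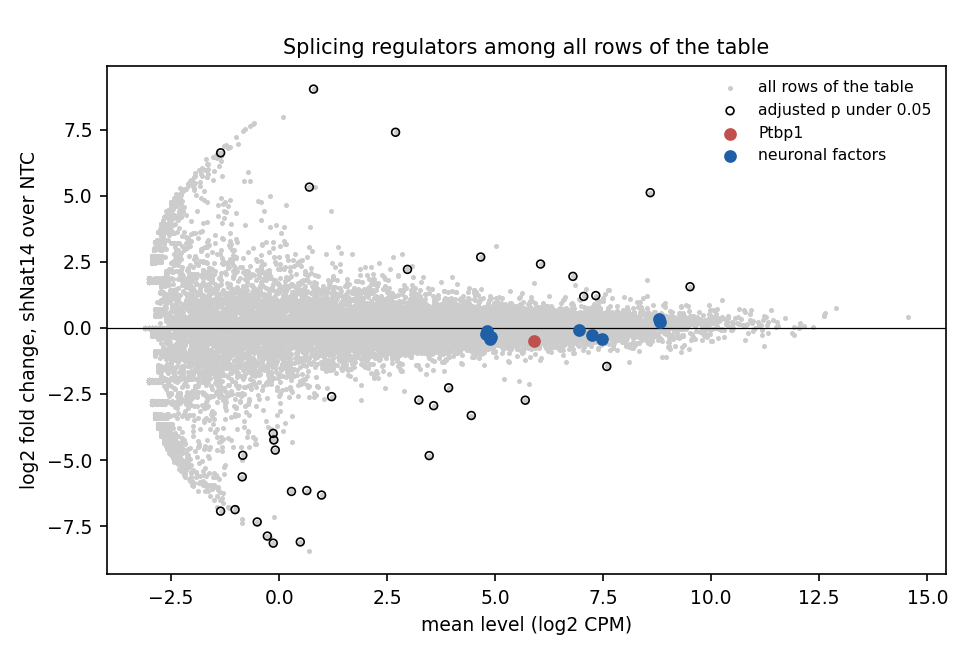
Log2 fold change (shNat14 over NTC, y axis) against mean level (log2 CPM, x axis) for all 21937 rows of the authors' deposited table in grey, with the 34 called rows ringed in black. Ptbp1 (red) and the 9 neuronal factors (blue) lie inside the grey cloud, between -0.48 and 0.34.

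Set side by side, progenitor Ptbp1 and the median of the neuronal factors did not stand on opposite sides of 0, and the interval of every gene crossed 0. On the log2 scale of the authors' deposited table Ptbp1 stood at -0.48 and the 9 neuronal factors had a median of -0.25, with 7 negative and 2 positive values from -0.43 to 0.34. Ptbp1 lay 0.24 below that median, which is less than its own approximate standard error of 0.35. With Ptbp2 alone in place of all 9, the distance was 0.82. The difference was not tested and has no known standard error, since the authors' deposited table has no values per library.

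As levels, the 10 genes spanned mean values from 27.8 CPM (Nova1) to 451 CPM (Elavl4) in the authors' deposited table. Levels of different genes were compared after division by the length of annotated exons. On that scale, log2 CPM per kilobase over both groups, Elavl4 was first (6.39), followed by Ptbp2 (5.59), Rbfox1 (5.10), Rbfox2 (4.46) and Elavl3 (4.16). Ptbp1 came next with 3.65, above Rbfox3 (2.34), Nova2 (1.85), Srrm4 (1.69) and Nova1 (1.67). With the length of the principal transcript instead, Ptbp2 and Elavl4 changed places at the top, Nova1, Srrm4 and Nova2 held the last places in that order, and Ptbp1 was again sixth. The spread of these levels between libraries is not known, so whether neighbours in this order differ beyond their spread cannot be said.

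Other RNA-processing genes were described from lists of named genes. These lists, like those of the paragraphs below, were chosen with earlier results of these data known. No gene of these lists was called in the authors' deposited table, and 6.35% of all rows above the lowest mean level had an unadjusted p under 0.05. The list labelled other neuronal splicing regulators and paralogs holds 28 RNA-binding proteins and is not limited to neuronal factors or to splicing. Of these, 20 had a positive and 8 a negative fold change, with a median of 0.12 and 2 at an unadjusted p under 0.05, both higher. Celf2, a CUG-binding splicing factor of brain and heart, had the smallest p among the positive ones (log2 fold change 0.67, unadjusted p = 0.0156, adjusted p = 0.744 in the authors' deposited table), and stood at 2383 CPM in shNat14 cells and 1494 CPM in NTC cells. Mbnl2, a muscleblind protein, had the smallest p among the negative ones (-0.64, unadjusted p = 0.0633 in the authors' deposited table).

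Of 32 hnRNP proteins, the family of abundant nuclear RNA-binding proteins that includes many splicing repressors, 27 had a positive and 5 a negative fold change, with a median of 0.22 and none at an unadjusted p under 0.05. Of 23 SR proteins and their kinases, 19 were positive and 4 negative, with a median of 0.23. The core spliceosome list had 13 positive and 20 negative values and a median of -0.03. Over all 17400 rows above the lowest mean level, 52.4% of fold changes were positive and the median was 0.00. By the smallest p in each direction, the hnRNP list had Tardbp at 0.38 and Ewsr1 at -0.28 in the authors' deposited table (unadjusted p = 0.108 and 0.309). The SR list had Srsf10 at 0.41 (unadjusted p = 0.0933) and the kinase Srpk3 at -3.01 at a very low level (mean log2 CPM -1.01, unadjusted p = 0.0147) in the authors' deposited table. Cdc5l at 0.37 and Snrpa at -0.38 led the core list in the authors' deposited table (unadjusted p = 0.198 and 0.156).

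**Figure D4:**
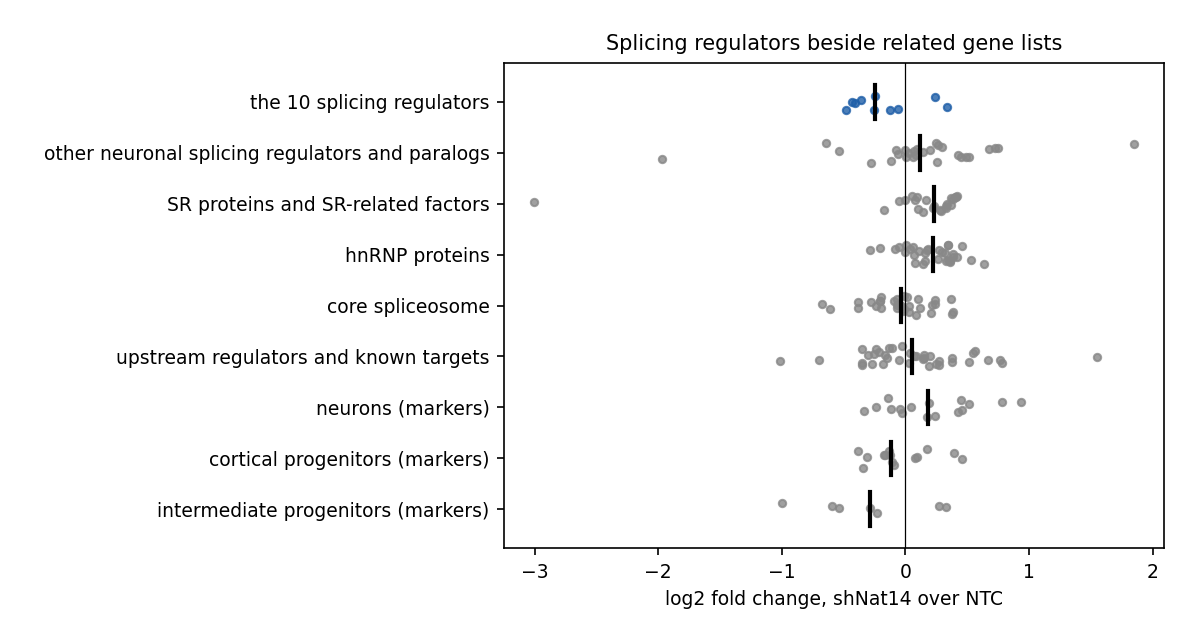
Log2 fold change (shNat14 over NTC, x axis) of the genes of each list, 1 point per gene, with the list median as a black bar. The 10 splicing regulators (blue) have a median of -0.25, the SR list 0.23, the hnRNP list 0.22 and the core spliceosome list -0.03.

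A list of 38 upstream regulators and known targets of the 10 genes had 21 positive and 17 negative values, a median of 0.05, and 6 genes at an unadjusted p under 0.05, 5 positive and 1 negative, which is 15.8% of the list against 6.35% of all rows above the lowest level. None of the 38 was called. Gap43, a growth cone protein whose message is bound by Elavl4, had a log2 fold change of 0.78 (unadjusted p = 0.0114, adjusted p = 0.687 in the authors' deposited table), and Rcor2, a corepressor that works with REST and Kdm1a, had -1.01 (unadjusted p = 0.0238, adjusted p = 0.844 in the authors' deposited table). These are gene-level values and say nothing of the exons by which most of the list is known.

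Markers of the sorted cells were as follows, with levels summed over each list. Neuronal markers came to 7699 CPM in shNat14 cells and 7243 CPM in NTC cells, with 10 of 16 genes positive. That sum is 106% of the NTC sum, where all rows together came to 108% of NTC, and it is 98.7% of NTC once the group totals are made equal. Cortical progenitor markers came to 3524 CPM in shNat14 cells and 3931 CPM in NTC cells, with 9 of 14 negative. This is 89.6% of NTC, and 83.3% with equal group totals. Most of that difference lay in 3 genes. In shNat14 and NTC cells, Fabp7 stood at 1937 and 2087 CPM, Slc1a3 at 678 and 862 CPM, and Hes5 at 231 and 302 CPM. The 5 positive genes were Sox2, Hes1, Vim, Mki67 and Sox9. Intermediate progenitor markers came to 358 CPM in shNat14 cells and 433 CPM in NTC cells, with 5 of 7 negative. This is 82.7% of NTC, and 76.9% with equal group totals. Without its most abundant gene, and with totals left as they were, the neuronal sum was 101% of NTC. The progenitor sum, in which Slc1a3 and Hes5 remained, was then 86.1% and the intermediate progenitor sum 83.7%. At an unadjusted p under 0.05 stood 1 of 16 neuronal markers and 0 of the 14 progenitor and 7 intermediate progenitor markers, against 6.35% of all rows above the lowest level. No marker gene of these or the following lists was called in the authors' deposited table. The smallest p in each direction belonged to Gap43 (given above) and Mapt (-0.33) among neuronal, Hes1 (0.46) and Slc1a3 (-0.35) among progenitor, and Insm1 (0.33) and Mfng (-0.59) among intermediate progenitor markers in the authors' deposited table, with unadjusted p of 0.138 or more for all but Gap43.

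Markers of other cells, in some of which Ptbp1 is also made, were summed in the same way, and the sums were not tested. For comparison, 6.35% of all rows above the lowest mean level had an unadjusted p under 0.05, and 52.4% of their fold changes were positive. Several of the microglial and endothelial markers had mean levels near or below 1 CPM. Astrocyte markers came to 691 CPM in shNat14 cells and 1148 CPM in NTC cells, with 7 of 7 negative and 3 at an unadjusted p under 0.05. Without Apoe, their most abundant gene, the sums were 375 CPM in shNat14 cells and 472 CPM in NTC cells. Microglial markers came to 17.7 CPM in shNat14 cells and 42.7 CPM in NTC cells, with 7 of 7 negative and 5 at an unadjusted p under 0.05. Meningeal markers came to 28.2 CPM in shNat14 cells and 42.4 CPM in NTC cells, with 1 of 5 at an unadjusted p under 0.05, a negative one. Markers of the choroid plexus and ependyma came to 621 CPM in shNat14 cells and 184 CPM in NTC cells, with 6 of 6 positive and 2 at an unadjusted p under 0.05. Most of that sum was Ttr, the choroid plexus transthyretin gene, named here after its values were seen, with an implied 568 CPM in shNat14 cells and 164 CPM in NTC cells (log2 fold change 1.80, unadjusted p = 0.0650, adjusted p = 1 in the authors' deposited table). Without Ttr the sums were 53.1 CPM in shNat14 cells and 20.5 CPM in NTC cells. Endothelial markers came to 23.0 CPM in shNat14 cells and 11.3 CPM in NTC cells, with 7 of 7 positive and 2 at an unadjusted p under 0.05. Mural markers came to 75.6 CPM in shNat14 cells and 34.3 CPM in NTC cells, with 2 of 5 at an unadjusted p under 0.05, both positive. Interneuron markers, of cells that also carry the neuronal factors, came to 176 CPM in shNat14 cells and 265 CPM in NTC cells, with 7 of 9 negative and 4 of them at an unadjusted p under 0.05. Of the blood markers, Hba-a1 and Hba-a2 sat at the lowest level of the table, 2 entries were not matched, and Alas2 and Ptprc together came to 7.41 CPM in shNat14 cells and 12.8 CPM in NTC cells, of which Alas2 made up 4.06 CPM in shNat14 cells and 10.4 CPM in NTC cells. The part of these cell types in the values of the 10 splicing regulators was not tested.

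By the smallest p in each direction, these lists had Apoe at -1.10 (astrocytes, unadjusted p = 0.00021), C1qb at -1.62 (microglia, p = 0.00169), and Dlx5 at -0.76 and Npy at 0.13 (interneurons) in the authors' deposited table. The others were Emcn at 4.98 (endothelium), Acta2 at 1.86 and Pdgfrb at -0.75 (mural cells), Dynlrb2 at 1.48 (choroid plexus and ependyma), Col1a2 at -1.02 and Lum at 0.31 (meninges), and Alas2 at -1.36 and Ptprc at 0.51 (blood) in the authors' deposited table. Emcn lay at a very low level (mean log2 CPM -0.21), with an implied 1.68 CPM in shNat14 cells and 0.053 CPM in NTC cells. Its interval ran from 1.02 to 8.94 on the log2 scale, so the size of its fold change is poorly known.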

How the data were processed

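RNA of sorted GFP-positive cortical cells was sequenced in 3 shNat14 and 3 NTC libraries, grouped by sample title. The file used is the authors' own comparison. Per the file headers, each gene has a log2 fold change, a p-value, an adjusted p-value and a mean level in log2 CPM, all deposited by the authors. DESeq, HTSeq 0.5.4p1, SAMtools 0.1.19, TopHat2 2.0.8 and the human build hg19 are listed, without roles, per the submitters' processing notes. The build behind the mouse table is thus unresolved, and the sources used here state neither filters nor normalization nor the counting strand. The adjusted p-values equal a Benjamini-Hochberg adjustment over all 21937 rows to within 0.369%. Depth is unknown, so no counting interval is given.

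Approximate standard errors were computed as the size of the fold change divided by the normal quantile of its p-value. The arithmetic was checked on simulated normal estimates, which does not test whether the authors' test follows that scale. Group levels were implied from mean and fold change. They sum to 1041835 CPM in shNat14 and 967851 CPM in NTC, so they are approximate. Lists were described over rows above the lowest level (log2 CPM -3.09). Of 260 list entries, 253 were found by symbol, 5 under an older symbol, and 2 were not found. The values of 1 marker list are not reported here. Gene lengths, exons and shared stretches came from GENCODE M21 (GRCm38). The text names all 10 genes, Nat14, 4 close paralogs and, per list, called genes and the smallest p in each direction. Ttr, E130317F20Rik and the other genes overlapping the 10 were added later. The genes and lists were chosen with earlier results of these data known. Python 3.11.15, pandas 2.3.3, numpy 2.4.6, scipy 1.17.1, Biopython 1.88 and matplotlib 3.10.9 were used. Other thresholds, adjustments, centrings and summaries were tried as alternatives.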

Additional observations from a re-analysis of the deposited data

How the results depend on the processing

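The count of called splicing regulators was 0 at the authors' adjusted p under 0.05, and also at 0.01, at 0.1, at an unadjusted p under 0.05, after Bonferroni correction, and with p-values adjusted over rows at or above the median level or above the lowest level, where the smallest adjusted p of the 10 genes was 0.941 and 0.940. None of these alternatives could give another count, because the smallest unadjusted p of the 10 genes was 0.158 in the authors' deposited table. An adjusted p is never below the unadjusted one. Each of the 10 fold changes kept its sign when centred on the median of either set of rows. These shifts were 0.03 for rows at or above the median level and 0.003 for rows above the lowest level. The signs also held with the implied group totals made equal, a log2 shift of 0.11 chosen after the data were seen. Every shift was positive, was subtracted and was smaller than either positive fold change, so no sign could change. Ptbp1 minus the median of the neuronal factors was -0.24, and from -0.39 to -0.23 with the mean or without each family in turn. A filter at the median mean level removed none of the 9 neuronal factors and so gave the same -0.24. The difference moved to -0.82 with Ptbp2 alone, by construction, since Ptbp2 had the highest of the 10 values. Marker sums without each list's most abundant gene, and with equal group totals, were also added after the data were seen. Equal totals put the neuronal sum at 98.7% of NTC, against 106%. Of the reported sums, that of the blood markers changed direction without its most abundant gene, to 143% of NTC against 58.1%. It then held Ptprc alone, at 3.35 CPM in shNat14 cells and 2.35 CPM in NTC cells (unadjusted p = 0.657 in the authors' deposited table). The endothelial sum without Cldn5 came to 505% against 204%, at low levels of 13.3 CPM in shNat14 cells and 2.63 CPM in NTC cells. The mural sum came to 141% against 221%. No list call changed without a level filter or with a minimum of 1 CPM. No list had a call to begin with, so the minimum could not change this, and dropping the filter brought back only Hba-a1 and Hba-a2. No paired analysis was possible because single libraries have no values here, and for the same reason the planned fits with other count tools and without single replicates were not run.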
